A study of Mus musculus with 6 samples.

Results

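Interferon response and antigen presentation genes were examined in 6 clones of mouse bone marrow mesenchymal stem cells with and without Dicer, the ribonuclease that makes mature microRNAs. The set held 54 genes listed by symbol. Of these, 47 had a transcript cluster of their own among the 18997 genes measured, and each was read from its brightest cluster. Oas1a, Eif2ak2, Igtp and Nlrc5 were listed only on clusters shared with other genes, and Isg15, Ifi44 and Tmem173 were not analysed here.

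All cells came from the hindlimb marrow of a floxed Dicer mouse aged 1 year, carried SV40 large T antigen from a retrovirus, and were cloned, so that each line is a single clone. Clones 6 and 12, labelled Dicer+/+, were the parents (n = 2). The derived clones, 6.8 and 6.9 from clone 6 and 12.2 and 12.4 from clone 12, all labelled Dicer-/-, had received an adenovirus with Cre and GFP, had been sorted for GFP and had been cloned again (n = 4). No infected clone kept Dicer, so infection, sorting and recloning cannot be told apart from Dicer loss. RNA of undifferentiated, untreated cells was read on 1 exon array for each clone, and the array titled 6.9 has a cell type label of 6.8, which was not followed. Values of the parents are given as clone 6 then clone 12, those of the line 6 pair as 6.8 then 6.9, and those of the line 12 pair as 12.2 then 12.4. In bulk RNA, fewer expressing cells and less RNA per cell cannot be told apart.

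Cells sense foreign or misplaced nucleic acid with receptors such as RIG-I (Ddx58), MDA5 (Ifih1) and Zbp1, which switch on interferon beta through Irf3 and Irf7. Interferon then acts through its receptor on Stat2 and Irf9, and this complex binds a DNA element of repeated GAAA letters in the promoters of antiviral genes. Interferon gamma acts through a palindromic TTCNNNGAA element and Irf1, and it raises the guanylate binding proteins and the genes that cut, transport and display peptides on MHC class I molecules.

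Upstream sequences are shown for members chosen because they hold these elements, with 1 that does not for comparison. Each run below is the 170 bases before the gene start in the RefSeq promoter table of mouse GRCm38.p6, written along the gene's strand, with letters in capitals where TTCNNNGAA or a GAAA repeat was found; the repeat was searched as GAAA, 2 bases of any kind and GAAA, on both strands. The first 4 genes are, among those with a GAAA repeat, the ones with the widest range over the arrays, and Tap1 is an antigen transporter gene with no match. B2m and Irf1, chosen after their values were seen, show a match in a class I gene and the palindromic element.
Gbp3, chr3:142559874-142560043, plus strand: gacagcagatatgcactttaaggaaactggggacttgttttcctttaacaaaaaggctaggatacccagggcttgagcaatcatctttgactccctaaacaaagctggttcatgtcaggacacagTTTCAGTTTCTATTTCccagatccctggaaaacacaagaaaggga
Rsad2, chr12:26456453-26456622, minus strand: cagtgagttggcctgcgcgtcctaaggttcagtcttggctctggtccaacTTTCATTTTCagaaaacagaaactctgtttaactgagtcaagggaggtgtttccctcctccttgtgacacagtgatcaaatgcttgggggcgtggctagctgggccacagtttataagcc
Gbp7, chr3:142530166-142530335, plus strand: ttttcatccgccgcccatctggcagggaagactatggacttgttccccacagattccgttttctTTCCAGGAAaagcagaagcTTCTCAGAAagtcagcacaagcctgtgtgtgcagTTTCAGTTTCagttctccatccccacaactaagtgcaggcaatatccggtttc
Ifit3, chr19:34583359-34583528, plus strand: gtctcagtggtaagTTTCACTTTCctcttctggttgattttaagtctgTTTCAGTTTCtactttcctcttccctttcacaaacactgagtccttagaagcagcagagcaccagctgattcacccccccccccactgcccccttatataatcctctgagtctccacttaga
Tap1, chr17:34187386-34187555, plus strand: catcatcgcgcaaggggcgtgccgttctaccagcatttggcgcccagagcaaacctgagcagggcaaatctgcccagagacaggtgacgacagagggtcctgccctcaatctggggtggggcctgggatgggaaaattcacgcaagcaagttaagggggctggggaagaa
B2m, chr2:122147517-122147686, plus strand: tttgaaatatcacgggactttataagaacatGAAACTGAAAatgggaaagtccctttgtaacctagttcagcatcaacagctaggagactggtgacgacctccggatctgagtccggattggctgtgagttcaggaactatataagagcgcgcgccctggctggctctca
Irf1, chr11:53769844-53770013, plus strand: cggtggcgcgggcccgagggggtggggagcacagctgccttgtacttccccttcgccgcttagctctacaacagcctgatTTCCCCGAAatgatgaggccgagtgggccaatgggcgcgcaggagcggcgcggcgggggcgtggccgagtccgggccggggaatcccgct

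The table held promoters of 42 of the 54 members, 49 in all. Within 250 bases before the start, the GAAA repeat was found in 13 of these 49 promoters (26.5%) and in 2.98% of all 32851 promoters of the table. TTCNNNGAA was found in 11 of the 49 (22.4%) and in 7.02% of all. The GAAA repeat matches of Gbp3 overlap each other, and Gbp7 held both elements. Besides the genes shown, Bst2, Gbp2, Ifit1, Irgm1 and Stat2 among the measured members held the GAAA repeat. A match describes the letters only.

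The array values are log2 RMA levels made by the authors. The median over all genes lay between 3.62 and 3.75 on the 6 arrays. The mesenchymal label was checked, with Col1a1 at 10.5 to 12.5 and Vim at 12.1 to 12.5 over the arrays, whereas Thy1 and Lepr stayed below 3.07 on every array. The summed linear level of the 11 measured mesenchymal markers, on the log2 scale, was 13.91 and 13.97 in the parents and 13.28 to 13.84 in the null clones, with 13.28 in clone 12.2. Clone 12.2 had the lowest level of 4 of the 11, Pdgfrb, Eng, Lepr and Cxcl12, and the highest of 0, against 15.6% and 21.4% of all genes. Clone 12.4, from the same parent, was lowest for 3, Col1a1, Col1a2 and Vim, and highest for 3, against 29.0% and 10.2%. Of 11 measured haematopoietic markers, 10 had a mean level under 4, and Ptprc, Itgam and Csf1r lay between 2.52 and 2.87. The summed linear level of that list, on the log2 scale, was 6.43 and 6.51 in the parents and 6.31 to 6.70 in the null clones, with 6.70 in clone 12.2. Cd14, the brightest haematopoietic marker, ranged from 3.69 to 4.87 and was also highest in clone 12.2. The part of these mesenchymal and haematopoietic markers in the results of clone 12.2 was not tested. Endothelial markers summed to 5.54 and 5.61 in the parents and to 5.44 to 5.61 in the null clones.

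**Figure D1:**
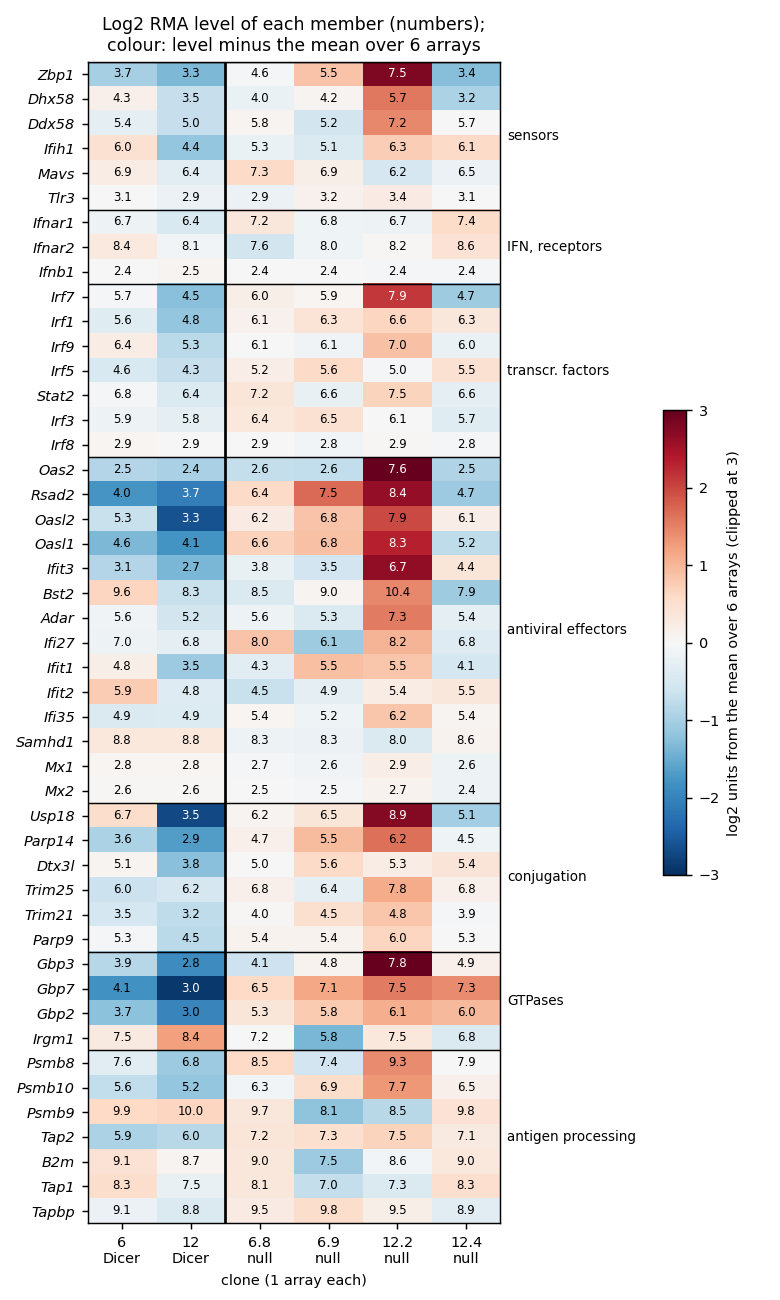
Log2 RMA level of the 47 measured members (rows, grouped by role) on the 6 arrays (columns, 1 array per clone, parents left of the line). Numbers are levels and colour is the level minus the gene's mean over the 6 arrays; the column of clone 12.2 holds the highest level of 31 members and that of clone 12 the lowest of 27.

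Most members had their highest level in null clone 12.2, and most, not always the same ones, had their lowest in parent clone 12. Median levels of the members in the other 4 clones lay between. The median level of the members was 5.57 in parent 6 and 4.54 in parent 12. It was 6.08 and 5.85 in the line 6 pair and 7.29 and 5.71 in the line 12 pair. Of the 47 members, 31 (66.0%) had their highest level on the array of clone 12.2, against 21.4% of all genes. Parent clone 12 held the lowest level of 27 members (57.4%), against 12.6% of all genes. Among genes with a mean level of at least 4, clone 12.2 was highest for 27 of 41 members against 19.8% of such genes, and clone 12 was lowest for 26 of 41 against 20.2%. Of the other clones, 6, 12, 6.8, 6.9 and 12.4 were highest for 4, 4, 1, 5 and 2 members, against 14.0%, 23.6%, 12.2%, 18.5% and 10.2% of all genes. Clones 12.4, 12.2, 6.9, 6.8 and 6 were lowest for 5, 3, 6, 3 and 3 members, against 29.0%, 15.6%, 18.8%, 9.91% and 14.1%.

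In 16 members (34.0%) all 4 null clones lay above both parents, against 9.44% of all genes and 15.1% of genes with a mean of at least 4. They were Gbp2, Gbp3 and Gbp7, Tap2 and Psmb10, Irf1 and Irf5, Rsad2, Oasl1, Oasl2, Ifit3 and Ifi35, and Parp9, Parp14, Trim21 and Trim25. Without clone 12.2 the count was 17 of 47, with 12.0% of all genes. Leaving out a null clone can only keep or raise such counts. The 17 thus does not measure the part of clone 12.2. All 4 null clones lay below both parents in Psmb9 and Samhd1, against 13.9% of all genes. Set against their own parents, all 4 null clones were higher in 21 members and lower in 3, against 13.1% and 18.9% of all genes.

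With Dicer loss as the tested term and the parental line as a block, 0 of 47 members passed an adjusted p of 0.05 in limma. Over all 18997 genes 31 (0.163%) passed as higher and 81 (0.426%) as lower. At an unadjusted p under 0.05, 11 members were higher and 1 was lower, against 5.82% and 7.9% of all genes. The median fitted change of the members was 0.63 log2 units, and that of all genes was -0.02. The members' median was 0.31 without clone 12.2. It was 1.14 without parent 6 and 0.14 without parent 12. Without a parent the blocked fit rests on the other line alone, so these are the medians of line 12 and of line 6. Tap2, Gbp7 and Gbp2 came nearest, and each passed in some of the other fits described with them.

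The parents, both carrying Dicer, also differed. Of the 47 members, 38 had a higher level in clone 6 than in clone 12, and 11 (23.4%) were higher by over 1 unit, against 1.84% of all genes and 3.4% of those with a mean of at least 4. The median of clone 12 minus clone 6 over the members was -0.42. No member was higher in clone 12 by over 1 unit, against 0.869% of all genes. Over all genes that median was 0.04. Each parent is 1 array, so this difference has no replicate check. The line term of the blocked model compares all line 12 with all line 6 arrays, and in it 0 members and 0 genes passed in limma, with 1 member (Mavs) lower and 0 higher at an unadjusted p under 0.05, against 2.88% and 2.37% of all genes.

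Usp18, the protease that removes Isg15 from proteins and dampens interferon signalling, had the widest parental gap. Its log2 levels were 6.70 and 3.45 in parents 6 and 12, 6.24 and 6.54 in the line 6 pair, and 8.91 and 5.15 in the line 12 pair. Parent 6 thus stood 9.51-fold above parent 12 and close to its own null clones, while both null clones of line 12 stood above theirs. The level in parent 12 was below that array's median over all genes (3.75), so the fold is approximate. The other wide parental gaps were those of Oasl2 (-1.96 log2 units, clone 12 minus clone 6), Ifih1 (-1.63), Dtx3l (-1.34), Bst2 (-1.31) and Ifit1 (-1.26). Irf7, Ifit2, Gbp7, Irf9 and Gbp3 followed, between -1.20 and -1.02. Irgm1 was the member with the widest gap the other way, at 0.95.

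**Figure D2:**
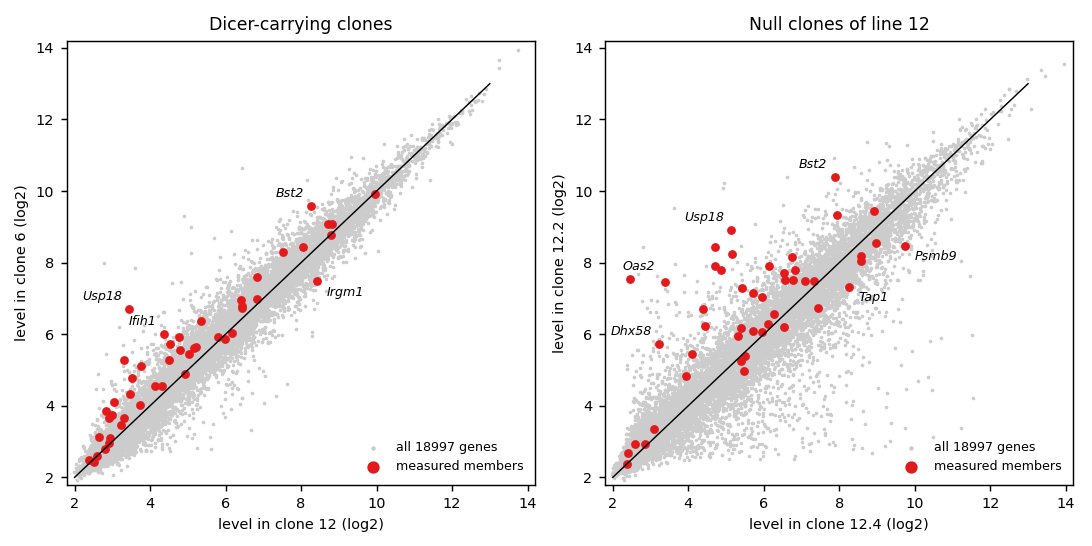
Levels (log2 RMA values) of clone 6 against clone 12, left, and of null clone 12.2 against null clone 12.4, right; grey points are all 18997 genes, red points the 47 measured members, and the line marks equal levels. Members lie mostly above the line in both panels, with Usp18 farthest from it on the left and Oas2, at 7.55 against 2.45, on the right.

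Each null clone was also set against its own parent, 1 array against 1 and thus with no test. The median change of the members was 0.25 in clone 6.8, 0.11 in clone 6.9, 1.60 in clone 12.2 and 0.61 in clone 12.4, and over all genes it lay between -0.10 and 0.01. With members of a mean below 4 left out it was 0.43 in clone 6.8. In clone 12.2, 30 members (63.8%) were above clone 12 by over 1 log2 unit, against 5.14% of all genes and 9.35% of those with a mean of at least 4. In clone 12.4 it was 16 (34.0%) against 5.14%. In clone 6.8 it was 7 (14.9%) against 3.04% and in clone 6.9 it was 11 (23.4%) against 4.58%. The null clones of line 12 share the low parent 12, and those of line 6 share parent 6, so the 4 comparisons are not independent. Members below their parent by over 1 unit numbered 2 in clone 6.8, 5 in clone 6.9, 1 in clone 12.2 and 1 in clone 12.4, against 4.14%, 6.97%, 5.14% and 3.52% of all genes.

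**Figure D3:**
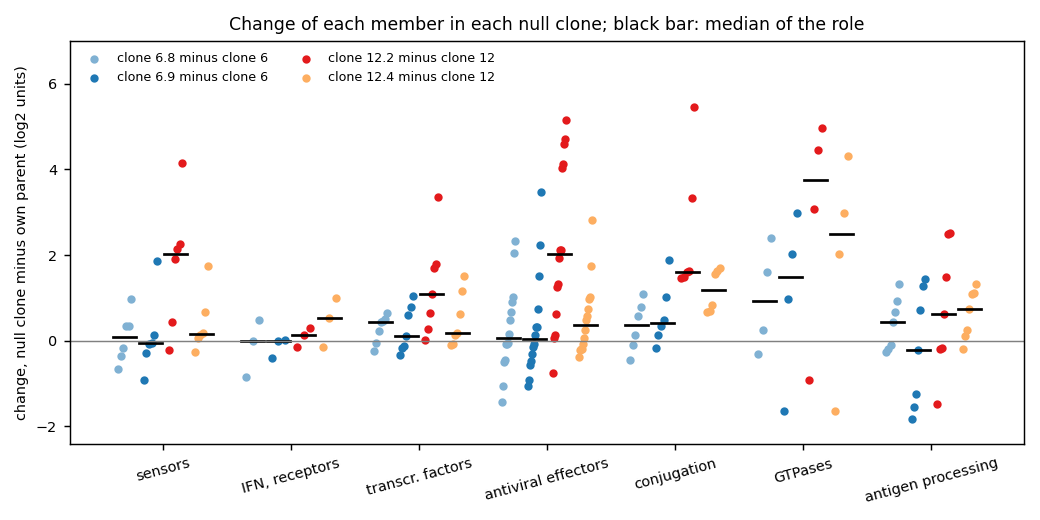
Change of each measured member in each null clone against its own parent (log2 units, 1 array against 1), by role; each point is a gene and the black bar is the median of that role in that clone. Clone 12.2 has a median of 2.02 in sensors and 2.02 in antiviral effectors, and the GTPases are the role with medians above 0.9 in all 4 clones.

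Sensors of nucleic acid had a median change of 2.02 in clone 12.2 and of 0.16 or less in the other null clones. Zbp1, a sensor of left-handed nucleic acid, had levels of 3.66 and 3.32 in parents 6 and 12, 4.63 and 5.52 in the line 6 pair, and 7.47 and 3.39 in the line 12 pair. Its level in clone 12.4 was thus that of the parents, whereas clone 12.2 stood 17.7-fold above clone 12. The level in clone 12 was below that array's median over all genes (3.75), so this fold is approximate. Ddx58 had 5.45 and 5.03 in the parents, 5.79 and 5.17 in line 6 and 7.16 and 5.71 in line 12. Dhx58, a regulator of both RNA helicase sensors, had 4.32 and 3.48, then 3.96 and 4.25, then 5.73 and 3.22, in the same order. In Ddx58 and Dhx58 only clone 12.2 stood more than 1 unit from its parent.

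Ifih1 behaved otherwise. Its levels were 5.99 and 4.37 in parents 6 and 12, 5.34 and 5.08 in the line 6 pair, and 6.27 and 6.11 in the line 12 pair. The null clones of line 12 were both higher than their parent, by 1.91 and 1.74, and those of line 6 both lower, by 0.66 and 0.91, and the 4 null clones met between 5.08 and 6.27. Mavs, the mitochondrial adaptor of the RNA helicases and the brightest sensor gene, ranged from 6.20 in clone 12.2 to 7.30 in clone 6.8. Tlr3, an endosomal receptor for double-stranded RNA, lay between 2.93 and 3.36 on all arrays. The sensor list had a median fitted change of 0.46, and 0 of its 6 measured members passed in limma.

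Interferon beta itself was not seen to vary. Ifnb1 lay between 2.37 and 2.52 on all 6 arrays, near the lowest values of the table, also in clone 12.2 at 2.37. The receptor chain Ifnar2 had levels of 8.43 and 8.05 in the parents, 7.59 and 8.02 in the line 6 pair, and 8.18 and 8.58 in the line 12 pair. Its partner Ifnar1 had 6.74 and 6.43, then 7.22 and 6.77, then 6.73 and 7.43, with the highest level in clone 12.4. The groups overlapped in all 3 genes. The dimmer clusters of Ifnar1 showed wider gaps than the brightest, with changes of 2.31 and 2.36 in clone 12.4 against 1.0.

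Of the 7 measured transcription factors, Irf1, Irf7, Irf9 and Stat2 were highest in clone 12.2, and the null clones lay above both parents in Irf1 and Irf5. Irf7, which amplifies the interferon response, had levels of 5.74 and 4.54 in parents 6 and 12, 5.96 and 5.85 in the line 6 pair, and 7.90 and 4.72 in the line 12 pair. Clone 12.4 thus matched its parent to within 0.18, and clone 12.2 exceeded it 10.3-fold. Irf9, the DNA-binding partner of Stat2, had 7.04 in clone 12.2 and 5.96 to 6.14 in the other null clones, with 6.38 and 5.35 in the parents. Stat2, the brightest of the list, had 6.80 and 6.43 in the parents, 7.24 and 6.64 in line 6, and 7.53 and 6.56 in line 12, so that its groups overlapped.

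Irf1, a factor of the interferon gamma response whose promoter run above holds TTCCCCGAA, was higher in every null clone. Its level was 5.57 and 4.78 in the parents, 6.08 and 6.35 in the line 6 pair, and 6.57 and 6.28 in the line 12 pair. The fitted change was 1.15 ± 0.27 (SE) (adjusted p = 0.174 in limma). Irf5, a factor downstream of Toll-like receptors, was at 4.56 and 4.32 in the parents and at 4.96 to 5.60 in the null clones. Its fitted change was 0.87 ± 0.20 (adjusted p = 0.169 in limma). Irf3 lay between 5.72 and 6.53 with overlapping groups, and Irf8, a factor of blood cells, between 2.82 and 2.95.

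Of the 14 measured antiviral effectors, 11 had their highest level in clone 12.2. Oas2, which makes the oligoadenylates that activate RNase L, had levels of 2.48 and 2.39 in the parents, 2.65 and 2.63 in the line 6 pair, and 7.55 and 2.45 in the line 12 pair. Clone 12.2 stood far above its parent while the other 3 null clones stayed within 0.16 of theirs. The levels outside clone 12.2 are near the lowest values of the arrays, so no fold is given and the size of the gap is at best a lower bound. Adar, the RNA-editing enzyme, had 7.29 in clone 12.2 and 5.17 to 5.61 on the other 5 arrays. Bst2, a membrane tether of virus particles and the brightest effector, had 9.57 and 8.26 in the parents, 8.51 and 9.01 in line 6, and 10.4 and 7.88 in line 12. It was above its parent in clone 12.2 alone, by 2.12 log2 units.

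Other effectors were higher in all 4 null clones, though unevenly. Rsad2, which encodes the antiviral enzyme viperin, had levels of 4.02 and 3.73 in the parents, 6.36 and 7.48 in the line 6 pair, and 8.44 and 4.71 in the line 12 pair. Oasl1, a translation inhibitor of Irf7 in mice, had 4.57 and 4.12, then 6.62 and 6.80, then 8.25 and 5.15. Oasl2 had 5.28 and 3.32, then 6.18 and 6.80, then 7.91 and 6.15. In all 3 the null clones exceeded both parents, with clone 12.4 the lowest of them and clone 12.2 the highest. The fitted changes were 2.87 ± 1.09 for Rsad2, 2.36 ± 0.88 for Oasl1 and 2.46 ± 0.78 for Oasl2, with adjusted p of 0.361, 0.352 and 0.277 in limma.

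Members of the Ifit family, which bind viral RNA ends, lie together on chromosome 19 and differed in pattern. Ifit3 had 3.14 and 2.66 in the parents, 3.81 and 3.45 in the line 6 pair, and 6.69 and 4.39 in the line 12 pair. Ifit1 had 4.79 and 3.53, then 4.30 and 5.53, then 5.46 and 4.10. Ifit2 had 5.93 and 4.76, then 4.49 and 4.88, then 5.39 and 5.50, with its highest level in parent 6. Ifit3 was the member of the 3 whose groups did not overlap, and the array may not fully separate such related genes.

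Among the remaining effectors Ifi35 was at 4.90 and 4.92 in the parents and at 5.22 to 6.17 in the null clones. Ifi27 ranged from 6.08 in clone 6.9 to 8.15 in clone 12.2. Samhd1, which depletes nucleotides needed by viruses, was at 8.77 and 8.78 in the parents, 8.31 and 8.30 in the line 6 pair, and 8.04 and 8.58 in the line 12 pair, lower in every null clone by 0.20 to 0.75 log2 units. Its adjusted p was 0.354 in limma. Mx1 and Mx2, dynamin-like antiviral GTPases, lay between 2.41 and 2.94, clone 12.2 included. The list had a median fitted change of 0.57 with 0 of 14 measured members past the threshold in limma.

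**Figure D4:**
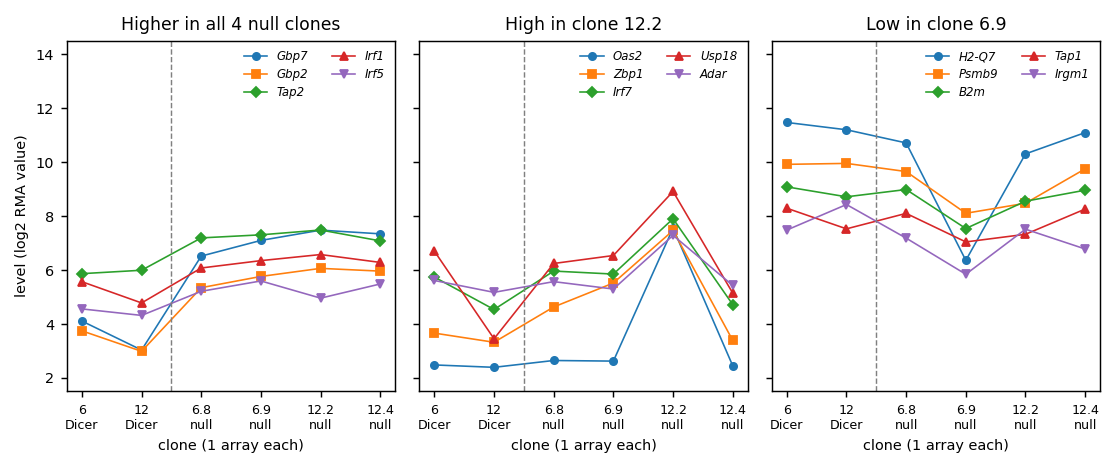
Log2 RMA levels on the 6 arrays, with parents left of the dashed line; lines join the values of 1 gene and carry no order. Left, members whose 4 null clones lie above both parents; middle, members highest in clone 12.2, where Oas2 reaches 7.55; right, class I genes and Irgm1 lowest in clone 6.9, where H2-Q7 reads 6.36.

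Regulators that work by protein conjugation or ADP-ribosylation had a median above their parent in every null clone, at 0.36 and 0.42 log2 units in the line 6 pair and 1.61 and 1.19 in the line 12 pair. Parp14, an ADP-ribosyltransferase, had levels of 3.65 and 2.91 in the parents, 4.73 and 5.53 in the line 6 pair, and 6.23 and 4.46 in the line 12 pair. Trim25, the ubiquitin ligase that acts on RIG-I, had 6.03 and 6.16, then 6.82 and 6.39, then 7.79 and 6.82. In both, as in Trim21 (3.24 to 3.47 in the parents, 3.95 to 4.84 in the null clones), the null clones exceeded both parents. The fitted changes were 1.96 ± 0.59 for Parp14, 0.86 ± 0.33 for Trim25 and 0.98 ± 0.30 for Trim21, with adjusted p of 0.26, 0.374 and 0.271 in limma.

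Parp9 and Dtx3l encode partner proteins, an inactive-type ADP-ribosyltransferase and its ubiquitin ligase. Parp9 had 5.27 and 4.50 in the parents and 5.32 to 5.96 in the null clones. Dtx3l had 5.11 and 3.77 in the parents, 5.02 and 5.59 in the line 6 pair, and 5.25 and 5.40 in the line 12 pair. In Dtx3l, as in Ifih1, the low value was that of parent 12 alone. None of the 6 regulators passed in limma.

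The guanylate binding proteins, GTPases that attack the membranes around intracellular pathogens, included the highest fitted change of all members. Gbp7 had levels of 4.11 and 3.03 in parents 6 and 12, 6.52 and 7.10 in the line 6 pair, and 7.48 and 7.34 in the line 12 pair. The mean was 3.57 ± 0.76 (SD, n = 2) with Dicer and 7.11 ± 0.42 (SD, n = 4) without, and the gap between the groups was wider than the spread within either. Gbp2 had 3.75 and 2.99, then 5.35 and 5.76, then 6.06 and 5.96. Clones 12.2 and 12.4 differed by 0.14 in Gbp7 and by 0.10 in Gbp2.

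The fitted change was 3.54 ± 0.43 for Gbp7 and 2.42 ± 0.32 for Gbp2, and the adjusted p in limma was 0.0579 and 0.0654. By size of fitted increase Gbp7 had rank 9 among all genes. Without the parental block, where 3 members and 0.353% of all genes were called higher, the adjusted p was 0.0264 for Gbp7 and 0.0325 for Gbp2 in limma. When line entered as a random effect, 3 members and 0.211% of all genes were called higher. With genes of a mean below 4 left out the adjusted p was 0.023 and 0.0361 in limma, with 0.57% of the genes tested called higher, and 0.337% of all genes were called with trend and robust moderation. The second cluster of Gbp7 gave changes of 0.57 and 0.64 in clones 6.8 and 6.9 and of 3.78 and 3.39 in clones 12.2 and 12.4, so the clusters differed in line 6. With the mean of its clusters the fitted change of Gbp7 was 2.82 (adjusted p = 0.127 in limma). With the null clones of a line averaged, the adjusted p in limma was 0.0922 for Gbp7 and 0.0982 for Gbp2.

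Gbp3 lies between Gbp7 and Gbp2 on chromosome 3 and followed clone 12.2 more than its neighbours did. Its levels were 3.86 and 2.84 in the parents, 4.10 and 4.83 in the line 6 pair, and 7.81 and 4.87 in the line 12 pair. Irgm1, an immunity-related GTPase with the GAAA repeat in its promoter, went the other way. It had 7.48 and 8.43 in the parents, 7.18 and 5.84 in the line 6 pair, and 7.51 and 6.78 in the line 12 pair. Irgm1 was lower than its own parent in every null clone, by 0.30 to 1.65 log2 units, and its fitted change was -1.13 ± 0.44 (adjusted p = 0.376 in limma). Of the 4 measured GTPases 0 passed.

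Antigen processing genes divided. Tap2, a chain of the transporter that carries peptides into the endoplasmic reticulum, had levels of 5.87 and 5.99 in the parents, 7.19 and 7.31 in the line 6 pair, and 7.48 and 7.08 in the line 12 pair. All 4 null clones lay above both parents, by 1.09 to 1.49 over their own, and the fitted change was 1.34 ± 0.15 (SE). Its adjusted p was 0.0532 in limma. It was 0.0217 in limma without the block, 0.028 when line entered as a random effect and 0.04997 when arrays were centred on their medians (0.153% of all genes higher). Tap1, the other chain of that transporter, had 8.29 and 7.53 in the parents, 8.10 and 7.04 in the line 6 pair, and 7.33 and 8.26 in the line 12 pair. The groups of Tap1 overlapped, with parent 6 the highest and parent 12 between the null clones, and its fitted change was -0.23 ± 0.46.

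The immunoproteasome subunits, which replace the standard catalytic subunits of the proteasome, also differed from each other. Psmb8 had 7.58 and 6.83 in the parents, 8.52 and 7.36 in the line 6 pair, and 9.34 and 7.94 in the line 12 pair. Psmb10 had 5.65 and 5.23, then 6.33 and 6.93, then 7.71 and 6.54, above both parents in every null clone, with a change of 1.44 ± 0.43. Psmb9 had 9.92 and 9.95, then 9.65 and 8.10, then 8.48 and 9.75, below both parents in every null clone, with a change of -0.94 ± 0.57. Adjusted p in limma was 0.573, 0.259 and 0.606 for Psmb8, Psmb10 and Psmb9.

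Psmb9, Tap1, Psmb8 and Tap2 follow each other in that order on chromosome 17 within the MHC, and Psmb9 and Tap1 are known to be transcribed apart from a shared promoter. Psmb9 and Tap1 had their lowest levels in clones 6.9 and 12.2, while Psmb8 and Tap2 were highest in clone 12.2. B2m, the light chain of class I molecules, had 9.08 and 8.71 in the parents, 8.99 and 7.54 in the line 6 pair, and 8.55 and 8.96 in the line 12 pair. Clone 6.9 was thus the low one, at 0.343 of the linear level of its parent. Tapbp, which loads peptides on class I molecules, stayed between 8.83 and 9.81. Of the 7 measured genes of this role 0 passed in limma.

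Clones 6.8 and 6.9 differed by over 1 log2 unit in 8 members. Clone 6.8 exceeded clone 6.9 by over 1 log2 unit in 6 members, against 3.87% of all genes, and 4 of the 6 were the antigen processing genes Tap1, Psmb8, Psmb9 and B2m, with differences (clone 6.9 minus clone 6.8) of -1.55 to -1.06. The others were Irgm1 and Ifi27, which had the widest gap of the 8, at -1.92 (clone 6.9 minus clone 6.8). Clone 6.9 exceeded clone 6.8 by over 1 unit in Ifit1 and Rsad2, against 2.2% of all genes. H2-Q7, a class I heavy chain gene from the list of other pathway genes, had levels of 11.5 and 11.2 in the parents, 10.7 and 6.36 in the line 6 pair, and 10.3 and 11.1 in the line 12 pair. Its second cluster read 3.62 in clone 6.9 and 8.03 to 10.3 elsewhere, and probes for this gene may read related class I genes. The class I heavy chain genes H2-K1, H2-D1 and H2-T23 were listed only on clusters shared with other genes. They were not read here, so H2-Q7 does not stand for them.

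Clone 12.2 exceeded clone 12.4 by over 1 log2 unit in 19 members (40.4%), against 3.23% of all genes and 5.39% of genes with a mean of at least 4. The widest gaps were those of Oas2 (5.10, with clone 12.4 near the lowest array values), Zbp1 (4.07), Usp18 (3.77), Rsad2 (3.73) and Irf7 (3.18). Psmb9 was the 1 member higher in clone 12.4 by over 1 unit, against 4.83% of all genes. Gbp7, Gbp2, Ifih1, Dtx3l and Ifit2 were within 0.17 of each other in these sister clones. Both clones share a parent and lack Dicer by label, and a difference between 2 arrays has no replicate check.

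Whether the change with Dicer loss differed between the lines was tested as an interaction, with 2 residual degrees of freedom. In limma 0 members and 0 genes passed, and a miss there does not show that the lines responded alike. At an unadjusted p under 0.05, the signed change was higher in line 12 than in line 6 for 6 members, against 1.63% of all genes. It was lower for 0, against 1.37%. The 6 were Ifih1, Ifit2, Gbp7, Gbp2, Dtx3l and Irf1, with differences of 2.61, 1.93, 1.68, 1.22, 1.36 and 1.0 log2 units. In Ifih1 and Ifit2 the change had opposite signs, at -0.79 and -1.24 in line 6 and at 1.82 and 0.68 in line 12. In these 6 the parental gap, between -1.63 and -0.76, went into the difference, since parent 12 was the lower in each.

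Other genes of the pathway, 64 by name, were measured for 45. Of these 0 passed in limma in either direction, and their median fitted change was 0.32. All 4 null clones lay above both parents in 8 of the 45 (17.8%) and below both in 5 (11.1%), against 9.44% and 13.9% of all genes. Of genes with a mean of at least 4 it was 15.1% and 16.2%, so both counts were near or under that share. A mean below 4 was found in 7 of the 45. Among 23 other interferon-induced genes 17 were higher in clone 12.2 than in clone 12 by over 1 log2 unit, against 5.14% of all genes. By the same measure 2, 1 and 4 were higher than their parent in clones 6.8, 6.9 and 12.4, against 3.04%, 4.58% and 5.14%. The chemokine gene Cxcl10 had levels of 5.45 and 4.41 in the parents, 7.32 and 5.57 in the line 6 pair, and 10.2 and 4.94 in the line 12 pair. Ccl5, another chemokine gene, had 6.63 and 5.42, then 7.43 and 5.58, then 9.07 and 5.77. Clone 12.2 was highest in both.

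In the signalling list the receptor gene Ifngr1 had 10.1 and 9.56 in the parents, 8.90 and 8.01 in the line 6 pair, and 7.53 and 9.54 in the line 12 pair. Socs3, a feedback inhibitor of cytokine receptors, had 6.14 and 5.39, then 5.98 and 6.77, then 7.48 and 6.54. In the antigen presentation list Cd74, the class II invariant chain, had 2.65 and 2.84 in the parents, 4.28 and 3.54 in the line 6 pair, and 5.53 and 4.70 in the line 12 pair. Its null clones lay above both parents, and its fitted change was 1.77 ± 0.40 (adjusted p = 0.161 in limma). The class II chain genes H2-Aa and H2-Ab1 stayed at 3.50 or below on every array.

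Members with the GAAA repeat before the start were set beside those without, as a description. In clone 12.2 the 10 measured members with a match had a median change of 2.60 log2 units, and the 27 with a promoter in the table and no match had one of 1.25. In clones 6.8, 6.9 and 12.4 the medians were 0.34, 0.53 and 0.78 with a match and 0.34, 0.02 and 0.66 without. Members with a match included both Gbp7, among the highest changes, and B2m and Irgm1, at or below their parents in most null clones.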

How the data were processed

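RNA of 6 clones was read on Affymetrix exon arrays, 1 per clone. The deposited table holds log2 values for 44343 transcript clusters. Partek 6.5 and RMA are listed, without role or order, in the submitters' processing notes. For the array values the sources used here state no genome build. RMA brings arrays to a common distribution, so a change in total RNA would not be seen. No detection calls were used, and precision is limited by how few arrays there are. No label tells of repeat cultures of a clone, so the spread behind each p-value is that between clones and may be partly technical.

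Clusters listed with 1 gene (22781) were named from the platform annotation, updated by Entrez identifier to GRCm38.p6, which 22485 matched, and those listed with several (2085) or not listed (19477) were not used. The brightest cluster stood for each gene. Changes were fitted in limma 3.58.1 (R 4.3.3) over all 18997 genes with Dicer loss and the parental line as terms, 3 residual degrees of freedom and Benjamini-Hochberg adjustment, and the fit was tested on simulated data. The pairing comes from the derivation of each null clone from a parent, and arrays of a line had a consensus correlation of -0.13. The members, gene lists, roles and rules for named genes were chosen with earlier results of these data known. Genes given by array were those with the highest and lowest changes, the widest parental gaps and, by role, the brightest and the widest range, with others added after their values were seen. Alternatives were other blocks, null clones of a line averaged, dim genes left out, other scalings, cluster means, another moderation and each array left out.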

Additional observations from a re-analysis of the deposited data

Results flagged for a closer look

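For 53 genes and 15 gene lists, the 4 null clones were searched for a value standing apart (Dixon, 95%). Chance alone would mark about 1 in 20 of independent values not picked by their spread, and 7 were found. H2-Q7 was picked for its wide range over these same arrays. Oas2 and Adar also enter the median of the antiviral effectors. The share of 1 in 20 is thus not the rate for this set. Clone 12.2 was the high one in 6 of the 7. Oas2 had a log2 level of 7.55 there against 2.45 to 2.65 in the other null clones, Adar had 7.29 against 5.30 to 5.57, Irf9 had 7.04 against 5.96 to 6.14, and Parp9 had 5.96 against 5.32 to 5.42. The median change in clone 12.2 was 2.02 (2.0208) for the antiviral effectors and 2.02 (2.0211) for the sensors, above the medians of the other null clones. H2-Q7 was the exception, with 6.36 in clone 6.9 against 10.3 to 11.1 in the other null clones.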

How the results depend on the processing

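The count of members higher with Dicer loss was 0 in the reported fit. It was 3 with no replicate block, where 67 genes were higher against 31, and 3 when line entered as a random effect (parental line as a random block), in each case Tap2, Gbp7 and Gbp2. It was 2 with genes of a mean below 4 left out and 2 with trend and robust moderation, in each case Gbp7 and Gbp2, and 1, Tap2, with each array centred on its median. The cause was not tested. It stayed 0 with the null clones of a line averaged, where 3 of all 18997 genes were higher. It also stayed 0 with a further quantile normalisation (32 of all genes) and with cluster means (20). Without any 1 null clone it was 0 too, with 0 to 3 of all genes higher. Where so few genes pass, a count of 0 members tells little about the members. The count of lower members was 0 in every setting run, and so were the counts in the line and interaction tests. Leaving out each array in turn, the median change of the members ran from 0.14 to 1.14, and under the other settings from 0.63 to 0.71. Both ends of the first range come from fits without 1 parent, which rest on 1 line. The median changes by clone kept their order, with 1.60 to 1.70 in clone 12.2, 0.53 to 0.74 in clone 12.4, 0.25 to 0.43 in clone 6.8 and 0.11 to 0.19 in clone 6.9. The 0.43 came with members of a mean below 4 left out. The count of members with all null clones above both parents ran from 17 to 21 when 1 null clone was left out, an alternative added after the data were seen. The share of all genes ran from 11.3% to 14.4%, and leaving out a null clone can only keep or raise either. Members near the lowest values of the arrays, such as Ifnb1, Mx1, Mx2, Irf8 and Tlr3, cannot show a further fall.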
